A study of Mus musculus with 11 samples.

Results

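The miR-378 family was examined in 11 small RNA libraries of mouse cortex, 6 of them sham and 5 from an ischemic stroke model. In this model, permanent occlusion of the middle cerebral artery (pMCAO), the left artery is closed by heat and not reopened. The family was taken by name and holds 5 of the 1907 mature miRNA entries counted in each library, namely mmu-miR-378a-3p, mmu-miR-378a-5p, mmu-miR-378b, mmu-miR-378c and mmu-miR-378d. All animals were male Balb/cOlaHsd mice, given in the labels as 3 months old, and tissue was taken 3 days after surgery. The sham mice had the same operation, with the artery exposed and lifted but not closed. The labelled tissue is cortex in the sham mice and peri-ischemic cortex, which surrounds the infarct core, in the pMCAO mice, so the operation and the dissected region cannot be told apart. The labels do not say how many animals went into a library.

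miRNAs are short RNAs that guide Argonaute proteins to messenger RNAs, mainly by pairing through the seed, the bases 2 to 8 of the mature strand. miR-378a lies within a gene for a coactivator of mitochondrial genes, PGC-1β, and the strands of its hairpin are known for restraining fatty acid oxidation, through carnitine O-acetyltransferase and the Mediator subunit MED13. It is best known from tissues with many mitochondria, such as heart, skeletal muscle and brown fat. In bulk tissue, a miRNA can change because cells hold more of it or because there are more of the cells that hold it, and counts alone do not separate these.

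The mature sequences of 3 of the 5 members were taken from RefSeq on the build GRCm38.p6. They are shown because these entries differ at only a few bases, so that a short read may match more than one of them. They run 5′ to 3′, with the seed in capitals.
mmu-miR-378b: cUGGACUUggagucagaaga
mmu-miR-378c: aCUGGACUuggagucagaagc
mmu-miR-378d: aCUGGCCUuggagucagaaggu
Between miR-378c and miR-378b, a run of 19 bases was identical and the only substitution was C21A, with positions counted from the 5′ end of miR-378c. The entry for miR-378b starts 1 base later, and its seed (UGGACUU) is therefore shifted by 1 base against that of miR-378c (CUGGACU). Between miR-378c and miR-378d the substitutions were A6C and C21G, the first of them within the seed (CUGGCCU in miR-378d). The 3 entries had a run of 14 bases in common, cuuggagucagaag, which no other entry among the 1679 mature names of the table held. None of their seeds occurred in another entry of that table. miR-378a-3p and miR-378a-5p were not among the entries searched, so neither statement covers them.

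The hairpins behind these entries were also unlike each other. They are printed with the mature strand in capitals.
Mir378b: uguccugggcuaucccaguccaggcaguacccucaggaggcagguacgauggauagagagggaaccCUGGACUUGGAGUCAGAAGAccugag
Mir378c: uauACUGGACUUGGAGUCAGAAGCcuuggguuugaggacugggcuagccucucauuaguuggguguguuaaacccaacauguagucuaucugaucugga
Mir378d: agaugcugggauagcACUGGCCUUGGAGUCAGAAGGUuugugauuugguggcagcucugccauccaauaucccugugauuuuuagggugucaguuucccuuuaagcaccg
The mature strand occupied bases 67 to 86 of the 92 bases of Mir378b, near the 3′ end. It occupied bases 4 to 24 of the 99 bases of Mir378c and bases 16 to 37 of the 110 bases of Mir378d, both towards the 5′ end. The predicted minimum free energy was -33.8 kcal/mol per 100 bases for Mir378b, -31.8 for Mir378d and -27.3 for Mir378c. Of the 1005 hairpins folded in the same way, 24.1%, 17.0% and 6.77% had a less stable prediction per base than these 3, so Mir378c was near the unstable end.

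The family lies at separate places in the mouse genome (GRCm38, GENCODE annotation). The hairpin of Mir378b (chromosome 11, 88352773 to 88352864) lies in an intron of Msi2, on the opposite strand. That of Mir378c (chromosome 14, 46954830 to 46954928) lies in an intron of Samd4, also on the opposite strand. Mir378d, on chromosome 10 from 126710282 to 126710391, overlapped no other annotated gene. Mir378a was the member annotated within a gene on its own strand.

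Its hairpin lies on the minus strand of chromosome 18 from 61397835 to 61397900, in an intron of Ppargc1b, the gene for PGC-1β. A second miRNA gene, Gm25301, is annotated over the same bases on the opposite strand.

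Most reads of the family belonged to miR-378a-3p. Over the 11 libraries it took 15757 counts, or 87.2% of the reads of the family. The other strand of the same hairpin, miR-378a-5p, took 1224 counts (6.77%) and miR-378c took 1059 (5.86%). miR-378b had 31 counts in all (0.171%) and miR-378d 5 counts (0.0277%). Mature miRNAs are of nearly the same length, so the counts were not divided by length. Levels are given as CPM, counts relative to library size after scaling by edgeR's trimmed mean of M-values (TMM).

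Library totals were between 1429037 and 2319810 counts in sham and between 744877 and 1411620 in pMCAO tissue, so every pMCAO library was shallower than every sham library. The lowest count behind any value of miR-378a-3p was 955, which gives a counting error of 3.24%. For miR-378a-5p and miR-378c the lowest counts were 53 and 61, with counting errors of 13.7% and 12.8%. All such errors cover counting only, since the reads carry no molecular identifiers.

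**Figure D1:**
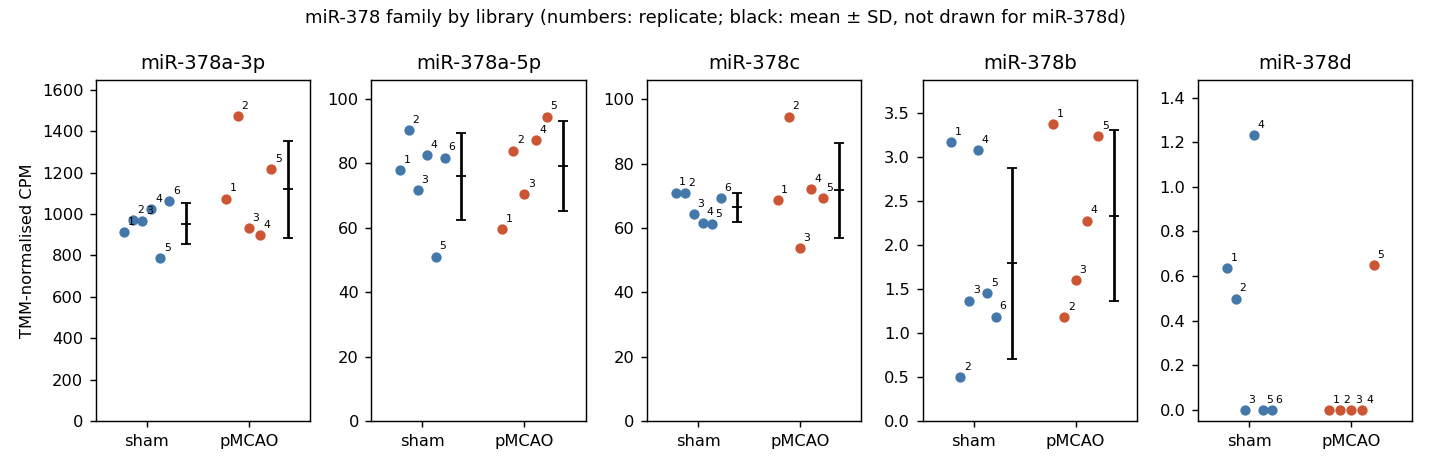
TMM-normalised CPM of the 5 members in each library, one panel per member with its own axis, blue for the 6 sham and red for the 5 pMCAO libraries, with replicate numbers beside the points and the mean ± SD in black, which is not drawn for miR-378d. The groups overlap in every panel, and the highest miR-378a-3p level, 1472 CPM, is that of pMCAO replicate 2.

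The level of miR-378a-3p was 912, 970, 967, 1024, 785 and 1062 CPM in sham replicates 1 to 6. In pMCAO replicates 1 to 5 it was 1074, 1472, 931, 898 and 1216 CPM. Of the 5 pMCAO libraries, 3 were above every sham library and 2 lay within the sham range, so the groups overlapped. Sham libraries averaged 954 ± 97.3 CPM (SD, n = 6) and pMCAO libraries averaged 1118 ± 235 CPM (SD, n = 5). This log2 fold change, 0.23 with a standard error of 0.14, did not pass the threshold of 0.05 (quasi-likelihood test in edgeR, adjusted p = 0.361). Its 95% interval ran from -0.07 to 0.53, that is from 0.954-fold to 1.44-fold. Without pMCAO replicate 2, the log2 fold change was 0.14 (adjusted p = 0.604 from edgeR).

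Among the tested miRNAs, miR-378a-3p ranked 96 by mean level. By raw count, it stood between rank 93 and 106 in the sham libraries and between rank 78 and 102 in the pMCAO libraries. The spread between sham libraries was small, with an SD of 0.15 on the log2(CPM + 1) scale, against a median of 0.28 over all tested miRNAs. That median also covers miRNAs with far fewer counts, where counting adds more to the spread. In pMCAO tissue the SD of miR-378a-3p was 0.29, and 50.1% of all tested miRNAs had a lower one.

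The 5p strand of the hairpin, miR-378a-5p, was at 78.0, 90.3, 71.8, 82.6, 51.0 and 81.8 CPM in sham replicates 1 to 6. It was at 59.6, 83.9, 70.4, 87.3 and 94.5 CPM in pMCAO replicates 1 to 5. Only pMCAO replicate 5 was above the sham range, and sham replicate 5 was the lowest library of all. Sham averaged 75.9 ± 13.6 CPM (SD, n = 6) and pMCAO averaged 79.2 ± 13.98 CPM (SD, n = 5). The log2 fold change was 0.06 (standard error 0.17, 95% interval -0.31 to 0.43, adjusted p = 0.913 from edgeR). It was -0.02 without sham replicate 5 and 0.24 with total counts as the scaling.

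For miR-378c, the sham replicates 1 to 6 were at 71.0, 70.8, 64.3, 61.6, 61.2 and 69.3 CPM. The pMCAO replicates 1 to 5 were at 68.6, 94.6, 53.6, 72.1 and 69.3 CPM. The pMCAO libraries thus lay on both sides of a narrow sham range, with replicate 2 highest and replicate 3 lowest. Sham averaged 66.4 ± 4.56 CPM (SD, n = 6) and pMCAO averaged 71.6 ± 14.7 CPM (SD, n = 5). The log2 fold change was 0.10 (95% interval -0.22 to 0.43, standard error 0.15) and did not pass, at an adjusted p of 0.758 from edgeR. It was 0.02 without pMCAO replicate 2 and 0.29 with total counts as the scaling.

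The entries miR-378b and miR-378d were at the limit of detection and did not pass the filter on low counts. miR-378b had 5, 1, 2, 5, 2 and 2 counts in sham replicates 1 to 6 and 3, 1, 2, 3 and 5 counts in pMCAO replicates 1 to 5. Sham averaged 1.79 ± 1.09 CPM (SD, n = 6) and pMCAO averaged 2.33 ± 0.970 CPM (SD, n = 5), where 3 counts correspond to between 1.497 and 3.55 CPM depending on the library. The groups were not distinguishable at this depth (two-sided exact permutation of log2(CPM + 1) values, p = 0.355). miR-378d had 1, 1 and 2 counts in sham replicates 1, 2 and 4, 1 count in pMCAO replicate 5 and 0 counts in the other 7 libraries. The same exact permutation test gave p = 0.424 for miR-378d, and no fold is given for either entry.

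Over the family, 3 of the 5 members were tested and 0 were called in either direction, where 7.1% of all 479 tested miRNAs were called. At an unadjusted p under 0.05 the count was also 0 of 3, both with edgeR and with DESeq2, the tool that the methods name, where edgeR gave such a p to 24.4% of all tested miRNAs (117 of 479). The groups were free of overlap for 0 of the 3 tested members and for 7.52% of all tested miRNAs. All 3 log2 fold changes were above 0, as were 50.3% of those of all tested miRNAs. The median of the 3 was 0.10 against 0.00147 over all tested miRNAs, but similar entries and the strands of one hairpin are not independent. Scaling by total counts alone raised that overall median to 0.18 and the value of miR-378a-3p to 0.41 (unadjusted p = 0.0230, adjusted p = 0.123 from edgeR). Relative to the overall median, miR-378a-3p was then at 0.24, close to the 0.23 obtained with TMM.

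**Figure D2:**
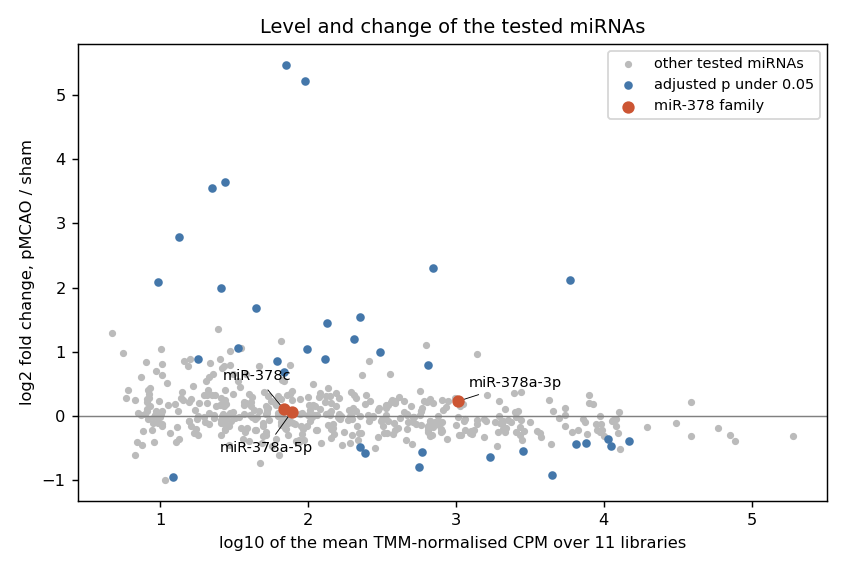
Log2 fold change of pMCAO over sham against the log10 mean TMM-normalised CPM for the 479 tested miRNAs, with those at an adjusted p under 0.05 in blue and the 3 tested members of the miR-378 family in red. The red points, at 0.23, 0.10 and 0.06, lie near the zero line among the grey points.

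The strands of the miR-378a hairpin were then compared within each library, which needs no scaling between libraries. miR-378a-5p made up 7.87%, 8.51%, 6.91%, 7.46%, 6.10% and 7.15% of the reads of both strands in sham replicates 1 to 6. In pMCAO replicates 1 to 5 it made up 5.26%, 5.40%, 7.03%, 8.85% and 7.21%. The lowest shares were those of pMCAO replicates 1 and 2, which are also the shallowest libraries, at 855753 and 744877 counts, and the part of depth in this was not tested. Their exact (Clopper-Pearson) 95% intervals of 3.96% to 6.82% and 4.24% to 6.76% overlapped with those of all sham libraries but replicate 2. Sham libraries averaged a share of 7.33 ± 0.830% (SD, n = 6), and pMCAO libraries averaged 6.75 ± 1.48% (SD, n = 5). The log2 ratio of 5p to 3p differed by -0.15 (pMCAO minus sham), which was within the spread between libraries (exact permutation test, two-sided, p = 0.368). Over all 11 libraries, the SD of the share was 1.15 percentage points, where counting alone would give 0.677.

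The share of miR-378c against miR-378a-3p varied less. It was 7.22%, 6.80%, 6.23%, 5.68%, 7.23% and 6.13% of the reads of both entries in sham replicates 1 to 6, and 6.00%, 6.04%, 5.45%, 7.43% and 5.39% in pMCAO replicates 1 to 5. The SD over the 11 libraries was 0.733 percentage points, and counting alone would give 0.638. The highest share was that of pMCAO replicate 4 and the lowest that of pMCAO replicate 5. In pMCAO replicate 2, where the levels of both entries were highest, the share was within the range of the other libraries. The log2 ratio of miR-378b, miR-378c and miR-378d together to miR-378a-3p differed by -0.12 between pMCAO and sham (exact permutation test, two-sided, p = 0.277). Whether the reads on miR-378c came from its own hairpin or from miR-378a was not tested, because the tables hold counts and no reads.

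**Figure D3:**
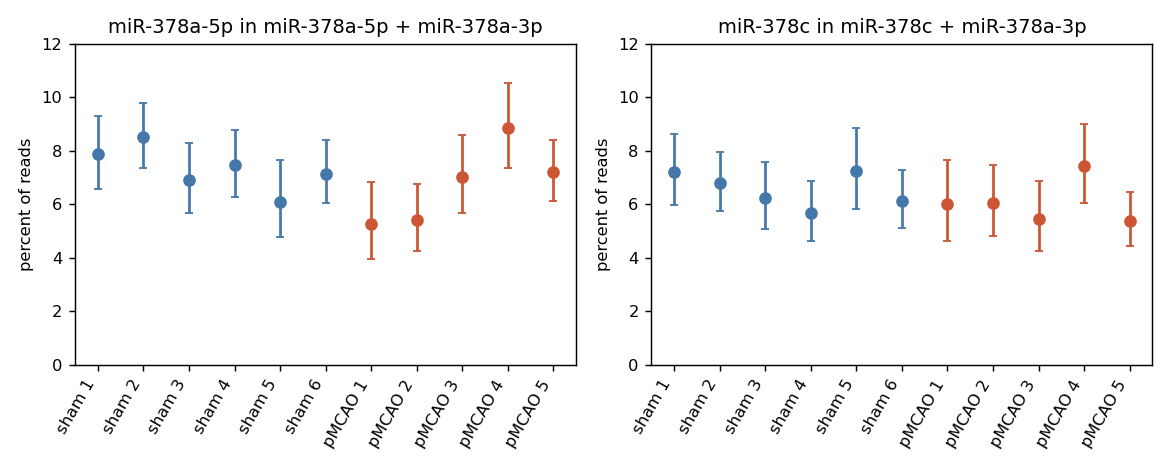
Percent of reads on miR-378a-5p among both strands of miR-378a (left) and on miR-378c among miR-378c and miR-378a-3p (right), per library, with exact 95% binomial intervals, sham in blue and pMCAO in red. Most intervals overlap, and the left panel spreads more (5.26% to 8.85%) than the right (5.39% to 7.43%).

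Because reads could be divided between miR-378a-3p and the 3 similar entries, their counts were also added. In sham the sum averaged 1022 ± 99.0 CPM (SD, n = 6) and ranged from 848 to 1133 CPM. In pMCAO it averaged 1192 ± 247 CPM (SD, n = 5) and ranged from 973 to 1568 CPM. The log2 difference of 0.20 was within the spread (p = 0.177, two-sided exact permutation test). With total counts as the scaling, the difference was 0.38 (exact permutation p = 0.0411), in a scaling that moves the median of all tested miRNAs to 0.18.

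The miRNA profiles most like that of miR-378a-3p were sought over the 11 libraries by the root mean square difference of centred log2(CPM + 1) values. The closest of 478 was miR-130a-3p (0.142), followed by miR-383-5p (0.151) and miR-320-3p (0.152). Within the family, miR-378c came at rank 7 (0.168) and miR-378a-5p at rank 48 (0.246). The strand that shares a hairpin with miR-378a-3p was thus further from it by this measure than miR-378c. Counting error, up to 13.7% for miR-378a-5p and 12.8% for miR-378c, adds to both distances. Reads of miR-378a-3p counted on miR-378c would make these 2 alike, and neither part was tested. No distance was computed for a profile that does not vary between libraries, so a rank alone does not show likeness. Of the 3 closest, miR-320-3p had the largest log2 fold change, 0.39 (adjusted p = 0.0547 from edgeR).

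Other miRNAs known for regulating lipid, glucose or brown fat metabolism were set beside the family, as a list of 18 names. Of these, 15 were tested, 0 were higher and 2 were lower in pMCAO tissue, with a median log2 fold change of -0.08 that turned to 0.09 with total counts as the scaling. Of all tested miRNAs, 4.38% were higher and 2.71% were lower. Both lower ones had larger changes than any miR-378 member. miR-34a-5p, a p53-induced miRNA known to repress the deacetylase gene Sirt1, fell from 5664 to 2996 CPM, which is -0.92 on the log2 scale (adjusted p = 0.0412 from edgeR, standard error 0.25). miR-365-3p, which is linked to brown fat together with miR-193b, fell from 692 to 400.0 CPM, which is -0.79 on the log2 scale (adjusted p = 0.0434 from edgeR, standard error 0.22). Its partner miR-193b-3p did not fall with it, at 340 CPM in sham and 407 CPM in pMCAO tissue (log2 fold change 0.26, adjusted p = 0.639 from edgeR). Leaving out one library at a time, miR-34a-5p and miR-365-3p each passed in 3 of 11 fits, with adjusted p-values up to 0.133 and 0.0957 from edgeR. With total counts as the scaling they had adjusted p-values of 0.0542 and 0.102 from edgeR. In that scaling 1 other name of the list was called as higher, beside 43 of all 479 tested miRNAs.

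The most abundant of this list was miR-29a-3p, at 63013 CPM in sham and 55331 CPM in pMCAO tissue (log2 fold change -0.19, adjusted p = 0.537 from edgeR). The next in level was miR-103-3p, which is linked to insulin sensitivity and lies in a pantothenate kinase gene, with a log2 fold change of -0.08 (adjusted p = 0.672 from edgeR). The 3 names that were not tested were the liver miRNA miR-122-5p, with 78 counts over all libraries, miR-802-5p, with 44 counts, and miR-196a-5p, with 0 counts.

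**Figure D4:**
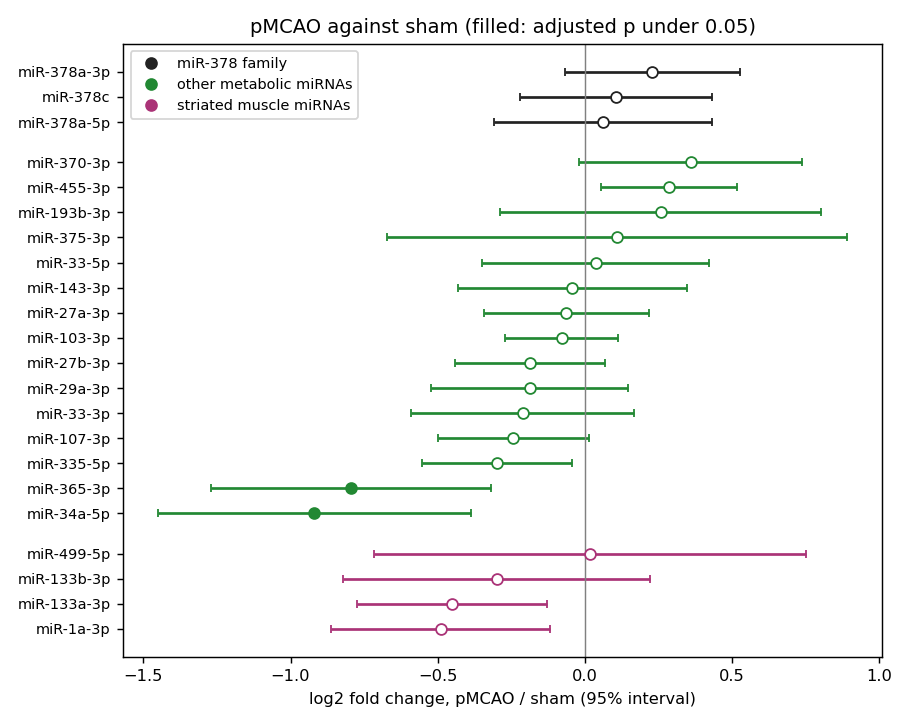
Log2 fold change of pMCAO over sham with its 95% interval from edgeR for the tested members of the miR-378 family (black), the other metabolic miRNAs (green) and the striated muscle miRNAs (purple). Filled points pass an adjusted p of 0.05, which only miR-34a-5p (-0.92) and miR-365-3p (-0.79) do among the 22 shown, and the intervals of the 3 family members include 0.

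miR-378a is abundant in striated muscle, so the miRNAs that mark this tissue were read in the same libraries. Of 7 names, 4 were tested and 0 were called, where 7.1% of all tested miRNAs were called. The fitted log2 fold change was below 0 for 3 of these 4, where 50.3% of all tested miRNAs were above 0. miR-1a-3p was at 329 CPM in sham and 234 CPM in pMCAO tissue, with a log2 fold change of -0.49 (adjusted p = 0.109 from edgeR). miR-133a-3p was at 192 and 140.4 CPM, with -0.45 (adjusted p = 0.0921 from edgeR). Of the names not tested, miR-208b-3p had 0 counts in all libraries and miR-208a-3p had 2 counts. The summed level of the muscle list was 338 CPM in pMCAO replicate 2, the lowest of all libraries, in which miR-378a-3p was highest. This is a single library, and the part of muscle in the level of miR-378a-3p was not tested.

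The labelled tissue was checked with the 7 neuronal miRNAs of a marker list. All were tested, and their summed level was between 324647 and 411262 CPM in sham and between 280427 and 330428 CPM in pMCAO tissue, led by miR-124-3p. Of these 7, 0 were called, where 7.1% of all tested miRNAs were called, and their median log2 fold change was -0.04. With total counts as the scaling the median was 0.14 and 1 was called as higher. Over all 479 tested miRNAs, that scaling gave a median of 0.18 and 43 called as higher. With TMM, the groups did not overlap for miR-124-3p, at a log2 fold change of -0.32 (adjusted p = 0.0523 from edgeR), where 7.52% of all tested miRNAs had no overlap. They overlapped for the other neuronal miRNAs of the list, and 3 of the 7 had a log2 fold change above 0. Of 5 miRNAs listed as myeloid, all 5 were higher in pMCAO (median log2 fold change 1.55), where 4.38% of all tested miRNAs were higher. Whether each of them is restricted to myeloid cells was not tested, and the list was chosen with earlier results of these data known. With one library left out, miR-146a-5p passed in 2 of 11 fits and the other 4 in all 11. The summed level of this list was between 326 and 790 CPM in sham libraries. It was 871, 3986, 1911, 1225 and 1799 CPM in pMCAO replicates 1 to 5. The pMCAO library with the highest myeloid sum, replicate 2, was thus also the one with the highest miR-378a-3p, while replicate 3, second in myeloid sum, held miR-378a-3p within the sham range. The part of myeloid cells in the level of miR-378a-3p was not tested.

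Of the 3 oligodendrocyte miRNAs 0 were higher and 1 was lower, where 4.38% of all tested miRNAs were higher and 2.71% lower. The lower one was miR-338-3p, at a log2 fold change of -0.54 (adjusted p = 0.0453 from edgeR), which passed in 1 of 11 fits with one library left out. The 4 vascular miRNAs had 0 calls, where 7.1% of all tested miRNAs were called in either direction, and a median log2 fold change of -0.05. Of 5 erythrocyte miRNAs, 2 were tested and 0 called. These were miR-451a, at a log2 fold change of 0.96, and miR-144-3p, at 1.17 (adjusted p = 0.672 and 0.537 from edgeR). The summed level of the list had a sham median of 169 CPM and reached 5375 CPM in sham replicate 1. The pMCAO replicates 1 to 5 stood at 1980, 1075, 4735, 640 and 1514 CPM. Each of them exceeded sham replicates 2 to 6, which spanned 49.2 to 272 CPM. miR-378a-3p in sham replicate 1, at 912 CPM, was within the range of the other sham libraries. The part of erythrocytes in the level of miR-378a-3p was not tested.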

How the data were processed

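For each of the 11 libraries the authors deposited raw counts for mature miRNA names. Per the study's methods, adapters were removed from Ion Torrent reads, reads were filtered by length, aligned by Bowtie to mm10 and assigned to miRBase entries by HTSeq. The mapping and multi-mapping settings are not given in the sources used here, so the division of reads among similar entries is unknown.

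The tests used edgeR 4.0.16 (R 4.3.3). After filterByExpr, set to a minimum of 10 counts and a total of 15, there remained 479 miRNAs. These were scaled by TMM and compared as pMCAO against sham by glmQLFit and glmQLFTest without covariates, with Benjamini-Hochberg adjustment over all tested miRNAs. Standard errors and 95% intervals were derived from that test. For single values, an exact permutation test ran over all 462 arrangements, on log2(CPM + 1) or log2 ratios with 0.5 added. The smallest p this allows is 0.00216. DESeq2 1.42.0 was an alternative. The scripts were tested on simulated counts.

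Named were the 5 members, list members that were called or abundant, the 3 closest profiles and entries sharing a seed. The striated muscle, cell type and metabolic lists were written from general knowledge, and members and lists were chosen with earlier results of these data known. Sequences came from RefSeq tables (3 of 5 members matched) and were folded with RNAfold 2.7.2. The sequence of miR-378a is not reported here. Pairs of libraries of a group differed by more than the sampling noise (chi-square per degree of freedom at least 20.4). The p-values set the difference between the groups against the spread between these libraries. How that spread relates to the spread between animals is unknown, as the animals per library are not labelled.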

Additional observations from a re-analysis of the deposited data

Results flagged for a closer look

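On the log2(CPM + 1) scale, 4 of 32 groups of values held a library that stood apart by the gap to its nearest neighbour, where chance, at about 1 in 20 groups, gives 1.6. miR-378d stood at 0.72 in pMCAO replicate 5 and at 0 in the other pMCAO libraries, which is a single count. The summed erythrocyte list was at 12.4 in sham replicate 1 and at 8.09 or less in the other sham libraries. The summed metabolic list was at 15.9 in pMCAO replicate 5, against 16.3 to 16.4 in the other pMCAO libraries. The summed oligodendrocyte list stood at 12.1 for sham replicate 4, and the rest of the sham group lay from 12.3 to 12.4. No library stood apart in this way for miR-378a-3p, miR-378a-5p, miR-378c, the log2 ratios within the family or the summed 3p entries.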

How the results depend on the processing

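In none of the 18 other fits (0 of 18) was a miR-378 member called. miR-378a-3p ranged from 0.20 to 0.41 over the other scalings, filters, tools and the summed entries, and from 0.14 to 0.31 with one library left out. miR-378c ranged from 0.02 to 0.19 and miR-378a-5p from -0.02 to 0.14 with one library left out, the latter reversing to -0.0205 only without sham replicate 5. Over the other scalings, filters and tools they ranged from 0.07 to 0.29 and from 0.03 to 0.24, highest with total counts. The differences of miR-378b and miR-378d on the log2(CPM + 1) scale kept their sign in all runs made. They were 0.13 to 0.44 and -0.41 to -0.11 with one library left out. With 31 and 5 counts over all libraries, these are not read as folds or as a stable direction. The log2 ratios of 5p to 3p (-0.26 to -0.06) and of the similar entries to miR-378a-3p (-0.20 to -0.08) also kept their sign. The summed level, at 0.10 to 0.27 with one library left out, passed an exact permutation test only with total counts as the scaling (0.38, p = 0.0411), which raises all miRNAs by a median of 0.18. Over all miRNAs, 34 were called (21 higher, 13 lower), and 16 to 36 with one library left out. With total counts 43 were higher and 1 lower, with upper-quartile scaling 23 and 4, and a filter of 10 or more counts in each library left 18 calls. The deviations of libraries with the same replicate number had correlations from -0.08 to 0.23, with 3 of 5 above 0.1. None was best matched to its own number (0 of 5). With the replicate number as a block, 19 miRNAs were called, against 34 without it, and miR-378a-3p was at 0.25 (adjusted p = 0.395 from edgeR). Depth limits miR-378b and miR-378d, which had at most 5 and 2 counts in a library.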
